A study of Mus musculus with 80 samples.

Results

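Mammary tumours driven by Myc were ranked by 5 genes of squamous epithelium, and the 20 tumours at the top of that ranking were compared with the 20 at the bottom, out of 80 tumours in all. Each tumour was scored by averaging over Sprr1a, Krt6a, Krt10, Tgm1 and Sfn the log2 signal minus that gene's mean over all 80 arrays. The groups are therefore selected on measured values, and these 5 genes are described here without a test. All 80 tumours came from FVB mice with the MMTV-Myc transgene, in which the promoter of the mouse mammary tumour virus drives the Myc oncogene in mammary epithelium, and all were flash frozen. They were E2F wild type, E2F1 null, E2F2 null or heterozygous for E2F3, with 20 tumours of each genotype and 1 array for each tumour. E2Fs are transcription factors that act in cell cycle entry, and the series asks how their loss alters Myc tumours. The labels give no ages. The high group held 4 E2F wild type tumours, 5 E2F1 null tumours, 3 E2F2 null tumours and 8 E2F3 heterozygous ones, and the low group held 4, 8, 7 and 1 in the same order. Genotype was therefore a covariate in every comparison across genes. Replicates are numbered 1 to 20 within a genotype, in order of deposit.

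Squamous epithelium, as in skin, is built from a basal layer anchored to a basement membrane and from cells above it that stop dividing and cornify. Basal cells carry the keratins Krt5 and Krt14 under the control of the transcription factor p63, wounded or fast-growing epidermis adds Krt6, Krt16 and Krt17, and cells near the surface make Krt1, Krt10, loricrin, filaggrin and the small proline-rich (Sprr) proteins. The normal mammary gland has a basal, myoepithelial layer with some of the same genes, and mammary tumours can contain areas that turn squamous.

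The score ran from -1.71 to 2.53. The high tumours lay between 0.52 and 2.53 and the low tumours between -1.71 and -0.59, and the nearest tumours outside the groups were at 0.51 and -0.59. The highest scores were those of E2F3 heterozygous replicate 12 (2.53) and E2F wild type replicate 18 (2.44). The 5 genes did not contribute alike. Krt6a, a keratin of activated epidermis, ran from 2.95 to 6.31 in log2(intensity + 5), the scale of all levels given here, in the low tumours (median 5.67) and from 8.84 to 12.80 in the high tumours (median 10.02). Sfn, the 14-3-3 protein stratifin, had medians of 6.39 and 8.65, and Sprr1a, a precursor of the cornified envelope, of 5.32 and 6.96. Tgm1, the transglutaminase that cross-links that envelope, had medians of 5.93 and 6.63, with ranges of 5.03 to 7.30 and 5.52 to 7.95 that overlapped. Krt10, the keratin of cells that have left the basal layer, had medians of 7.41 and 7.51, and only E2F3 heterozygous replicate 2, at 10.87, lay above 8.17, the highest low tumour. The ranking is thus mainly one by Krt6a, Sfn and Sprr1a: over 80 tumours their Pearson correlations with the score were 0.94, 0.86 and 0.84, against 0.37 for Tgm1 and 0.12 for Krt10, as a description of a score that contains them. Without Krt6a in the score, 16 of the 20 high and 16 of the 20 low tumours stayed in their group, and without any 1 of the other 4 genes at least 17 did.

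**Figure D1:**
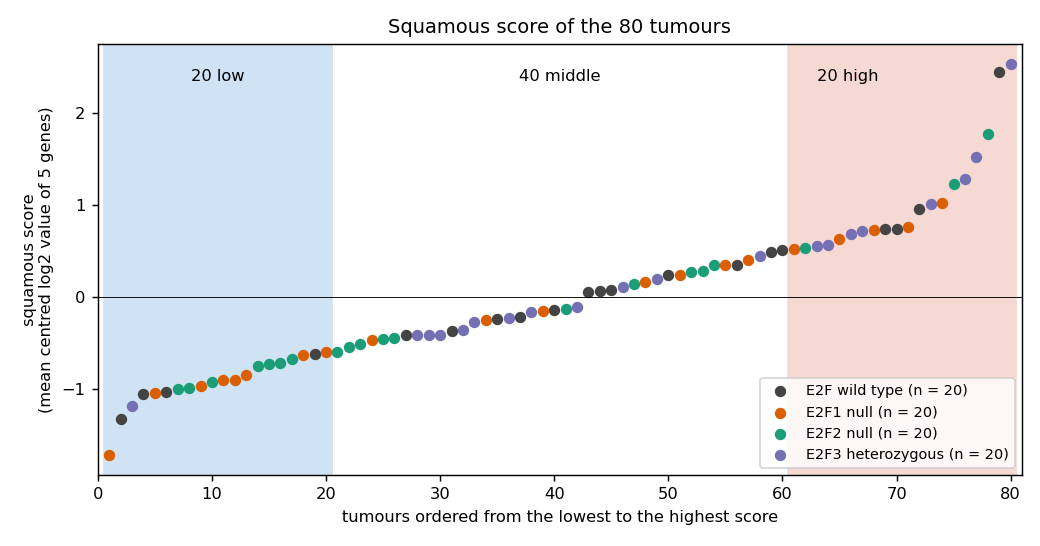
Each point is 1 of 80 tumours, ordered from the lowest to the highest squamous score (horizontal axis) with its score, the mean centred log2 value of 5 genes, on the vertical axis; colour gives the genotype and shading the 20 low and 20 high tumours. Scores rise without a gap through the middle, from -1.71 to 2.53, and 8 of the 20 high tumours are E2F3 heterozygous.

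The median log2 signal over all probe sets was higher in the high tumours, 7.29 ± 0.12 (SD, n = 20) against 7.15 ± 0.07 (SD, n = 20; permutation test, two-sided, p = 0.00012, adjusted over 3 measures 0.00036). The ratios of 3' to 5' control probe sets, which follow RNA quality, differed by 0.02 (log2) for Gapdh (adjusted p = 0.614) and by -0.02 for beta-actin (adjusted p = 0.827). E2F1 null replicate 6, in the high group, had the highest collagen score of all tumours, 3.07, and is named where leaving it out ends a named gene's call or moves a count by over 1.5 times. E2f1 measured 6.95 ± 0.42 (SD, n = 20) in E2F1 null and 7.13 ± 0.26 in wild type tumours, and E2f3 measured 6.51 ± 0.43 in E2F3 heterozygous and 6.72 ± 0.26 in wild type tumours; the labels do not place the deletions on these probe sets, so the signals do not check the genotypes. Each label carries a number that several tumours can share and whose meaning is not given, so tumours of 1 number may come from 1 animal. The high tumours held 18 such numbers and the low tumours 19.

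The high and low tumours differed widely. Of 8761 tested genes other than the score genes, 1535 (17.5%) were higher in the high tumours and 1280 (14.6%) were lower, by limma with genotype as a covariate, the label number as a random block and a Benjamini-Hochberg adjusted p under 0.05. Among these, 511 were higher and 56 were lower by more than 2-fold, so the large differences were mostly increases. The median log2 difference over all tested genes was 0.00065. These p-values measure association with the score, not the effect of a treatment. The high tumours also had more collagen RNA: the mean centred signal of 30 fibroblast and collagen genes ran from -0.79 to 3.07 (median 0.51) in the high and from -1.96 to 0.20 (median -0.78) in the low tumours. With that collagen score as a covariate, which was added with the results in view, 130 genes (1.48%) were higher and 20 (0.228%) were lower; 124 and 15 of these were also called without it. Each group of genes below is therefore also given under this covariate. The count of a list is to be read against the 17.5% and 14.6% of all genes, and a share near these is no result about the list. In RNA from whole tumours, more cells of a type and more RNA per cell cannot be told apart.

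Genes of the basal epithelial layer were among those with the largest differences. Of 33 genes of the basal and myoepithelial list on the array 28 passed the filter on low signal; 22 were higher in the high tumours, none was lower, and the median log2 difference was 1.35. A member that passed the filter only because of the high tumours had to differ, so counts of this kind describe the list and do not test it. Trp63, which encodes p63, ran from 2.57 to 7.16 (median 5.06) in the low and from 5.53 to 10.03 (median 8.49) in the high tumours. Of the 20 high tumours 19 lay above every low tumour, and the exception was E2F3 heterozygous replicate 2. The log2 difference was 3.49 (SE 0.34, adjusted p = 2.9e-09), or 11.2-fold. Krt5 ran from 5.11 to 7.80 (median 6.29) in the low and from 6.77 to 11.71 (median 10.25) in the high tumours, and 18 high tumours were above all low ones. Its difference was 3.64 (SE 0.39, adjusted p = 2.7e-08). Krt14, the partner of Krt5, ran from 4.63 to 12.60 (median 7.06) in the low and from 9.49 to 13.02 (median 11.46) in the high tumours, a difference of 3.98 (SE 0.56, adjusted p = 3.4e-06), but only 1 high tumour was above every low one. In the low group E2F1 null replicate 3 had 12.60 beside a Krt5 value of 6.54, E2F1 null replicate 7 had 11.70 beside 6.66, and E2F2 null replicate 12 had 10.05.

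The genes that anchor the basal layer were higher too. Col17a1, a collagen of the hemidesmosome that spans the cell membrane, ran from 2.51 to 6.48 (median 4.36) in the low and from 6.29 to 10.14 (median 8.30) in the high tumours. In 19 high tumours it was above every low one, and the difference was 4.02 (SE 0.38, adjusted p = 2.5e-09). Lama3 and Lamb3, chains of laminin-332 to which hemidesmosomes attach, were higher by 3.84 (SE 0.37, adjusted p = 2.9e-09) and 2.37 (SE 0.29, adjusted p = 3.7e-07), and Itgb4, the integrin of the same junction, by 1.20 (SE 0.25, adjusted p = 0.00047). Lamb3 and Itgb4 were chosen after their values were seen, as parts of that junction. Bnc1, a zinc finger protein of basal keratinocytes, had medians of 4.97 and 8.78, and Trim29, another basal epithelial protein, of 6.06 and 7.88. All of these genes stayed called with the collagen score as a covariate, at 3.09 for Trp63, 2.79 for Krt5, 2.93 for Krt14, 3.18 for Col17a1, 3.16 for Lama3, 2.02 for Lamb3, 1.20 for Itgb4, 3.14 for Bnc1 and 1.71 for Trim29. Of the whole list 11 members were called in that fit. The contractile marker Acta2, the smooth muscle actin of myoepithelial cells, differed by 0.95 (adjusted p = 0.0066) but by -0.12 (adjusted p = 0.83) with the covariate, and the myoepithelial markers Cnn1, Myh11 and Oxtr did not pass the filter on low signal; Cnn1 was above it in 6 high tumours and in no low one.

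**Figure D2:**
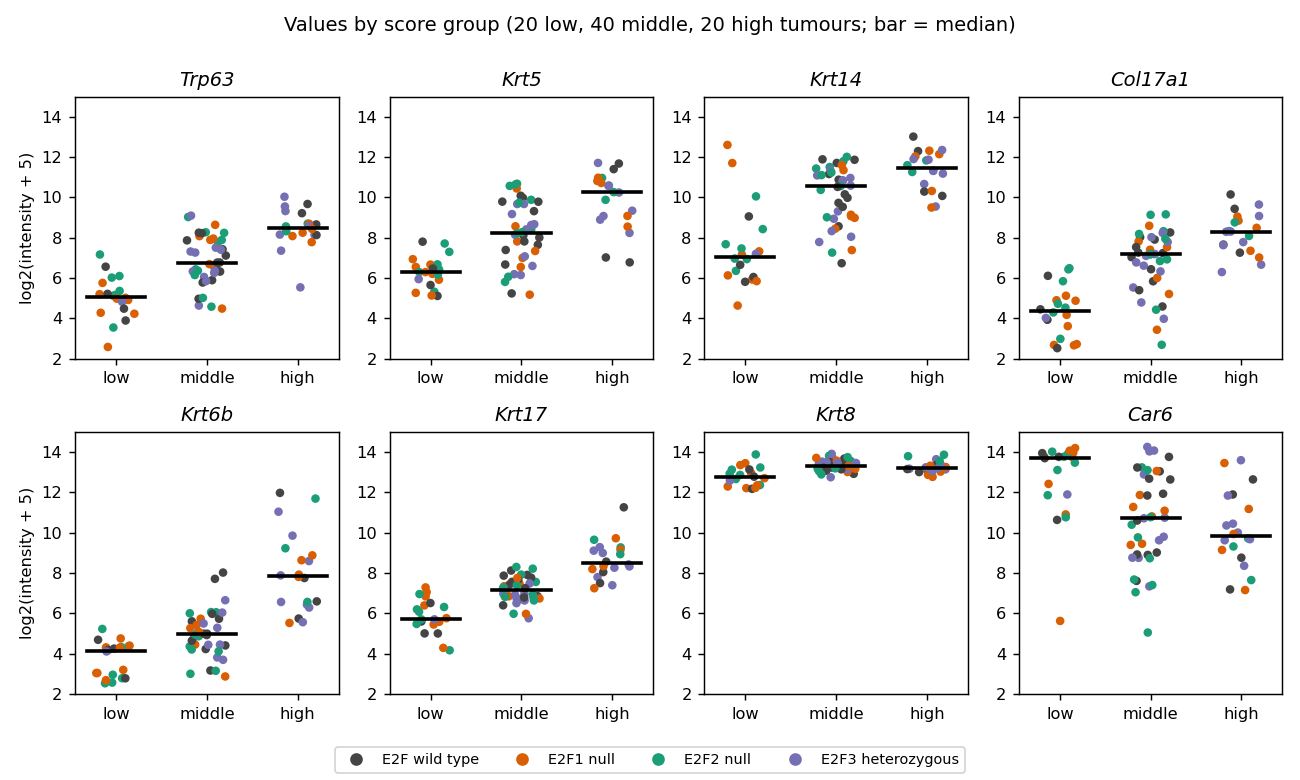
Each point is 1 tumour, with log2(intensity + 5) on the vertical axis for 8 genes in the 20 low, 40 middle and 20 high tumours; colour gives the genotype and the bar the median. Trp63, Krt5, Col17a1, Krt6b and Krt17 step up from low to middle to high, Krt14 has 3 low tumours above the lowest high one, Krt8 stays bright in all groups, and Car6 is brightest in the low tumours.

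The keratins that epidermis adds when it is activated followed the same split. Krt6b ran from 2.53 to 5.23 in the low and from 5.52 to 11.98 in the high tumours, so that the groups did not overlap, and its difference was 4.43 (SE 0.53, adjusted p = 2.5e-07). It is nearly identical in sequence to the score gene Krt6a, and cross-hybridisation between keratins of 1 family was not tested. Krt16 had medians of 4.54 and 7.82 (difference 3.95, SE 0.42, adjusted p = 1.5e-08), and Krt17 had medians of 5.73 and 8.50 (difference 2.97, SE 0.31, adjusted p = 1.6e-08). For either gene 19 high tumours were above all low tumours. Krt6b was above the filter on low signal in 16 high, 3 middle and 0 low tumours, and Krt16 in 17, 8 and 0. Both passed the filter only through the high tumours and so had to differ. Their p-values and their separation therefore describe them and do not test them. Tpm2, a tropomyosin, was the other of the 2 genes without any overlap, at 7.67 to 9.29 in the low and 9.55 to 12.82 in the high tumours. Of 6 tested members of the stratified keratin list 4 were higher and 1, Krt23, was at -1.59 (SE 0.60, adjusted p = 0.04; 0.084 without E2F1 null replicate 6). Krt79 was higher by 1.14 (adjusted p = 0.038; 0.079 without the 2 highest tumours), and Krt80 differed by 0.24 (adjusted p = 0.41). With the collagen covariate Krt6b, Krt16 and Krt17 stayed called at 3.52, 3.98 and 2.61, and Krt23 and Krt79 did not (adjusted p = 0.78 and 0.49). For Krt6b and Krt16 the call in that fit, too, describes them and does not test them.

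Of 18 tested genes of the desmosome and stratified adhesion list 6 were higher and none was lower, with a median of 0.25. Dsp, the desmoplakin that ties keratins to the desmosome, ran from 5.41 to 10.56 (median 8.79) in the low and from 9.73 to 12.58 (median 11.48) in the high tumours. Its difference was 2.98 (SE 0.38, adjusted p = 6.4e-07) and stayed 2.98 with the collagen covariate. Anxa8, an annexin of stratified epithelium, was higher by 2.63 (SE 0.35), Cdh3, the P-cadherin of basal cells, by 1.34 (SE 0.33), and the plakophilins Pkp1 and Pkp3 by 1.14 and 0.78. With the covariate 4 of the 6 stayed called, and Cdh3 and Pkp1 did not (adjusted p = 0.36 and 0.21). Cdh1, the E-cadherin of all epithelia, differed by 0.17, and Jup, Cldn1, Cldn4 and Cldn7 by 0.23, -0.09, -0.10 and 0.16, none of them past the threshold (Cdh1 had an adjusted p of 0.19, and of 0.047 without E2F1 null replicate 6). Dmkn, Ly6d, Lypd3 and Stfa3 were the 4 members called among 10 tested of 38 measured genes on the cornified envelope list, with differences of 1.93, 1.55, 1.47 and 1.64. None of these 4 was called with the collagen covariate (adjusted p from 0.059 for Lypd3 to 0.28 for Stfa3).

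The other 28 measured genes of the cornified envelope list did not pass the filter, which asked for a signal above 74.6 on 10 of 80 arrays. They are therefore genes bright in few tumours by selection, and what follows describes which tumours these were. E2F3 heterozygous replicate 12 and E2F wild type replicate 18, the 2 highest by score, each had 11 of these 28 genes above 74.6, and E2F3 heterozygous replicate 2 had 8. No other high tumour had more than 2 and no low tumour more than 1. Sprr1b, another precursor of the envelope, had medians of 2.48 in the low and 5.78 in the high tumours, and 17 high tumours were above every low one although 5 were above 74.6. It reached 10.13 and 9.74 on the log2 scale in the first 2 tumours named, Krtdap 10.16 and 9.79, and Crct1 11.35 and 9.49. E2F3 heterozygous replicate 2 differed from both: it had Krt10 at 10.87, Krt1 at 8.93, Flg, the precursor of filaggrin, at 8.40 and Lor, which encodes loricrin, at 8.24, with the lowest Trp63 value among the high tumours, 5.53. Krt1 was above 74.6 in no other high tumour. Ivl, which encodes involucrin, was above 74.6 in none of the 20 high or 20 low tumours, and neither were Sprr3, Krt2, Krt4 and Krt13. Lor, which passed the filter and is not a score gene, differed by -0.05 (SE 0.27, adjusted p = 0.89) between the groups.

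Hair follicle genes that did not pass the filter, bright in few tumours by selection, were mainly bright in 1 high tumour. E2F3 heterozygous replicate 12 had 19 genes of the hair follicle and sebaceous list that had not passed the filter above 74.6, where E2F wild type replicate 18 had 1 and every other high tumour 0. Tchh, the trichohyalin of the inner root sheath, reached 12.43 in this tumour, Krt27 11.30, Krt31 9.34, Krt33a 8.84, Krt72 8.81, Krt34 8.80 and Krt71 8.58. Hoxc13 and Msx2, transcription factors of the hair matrix, were at 6.47 and 7.31. Krt75, a hair follicle keratin not in that count, was above 74.6 in other high tumours. It was at 7.95 and 6.70 in E2F1 null replicates 18 and 12. It was at 6.80 in E2F wild type replicate 11 and at 7.43 in E2F3 heterozygous replicate 14. Krt81 and Padi3, which passed the filter, were also above 74.6 in other high tumours. Middle tumours were left out of these counts, and among them E2F3 heterozygous replicate 16 had Tchh at 7.39. Krt25, Krt27 and Krt71 were each above 74.6 in 1 middle tumour, at 7.07, 6.68 and 6.96. Keratins that share sequence (Krt33a and Krt33b, Krt81, Krt83 and Krt86) may share probes. Melanocyte markers stayed dim in both groups, with highest values of 4.99 for Tyrp1, 5.09 for Dct and 5.78 for Pmel in the high tumours, and of 40 tumours none had any of the 3 above 74.6. Without the 2 highest tumours 1296 genes were higher and 1015 were lower.

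**Figure D3:**
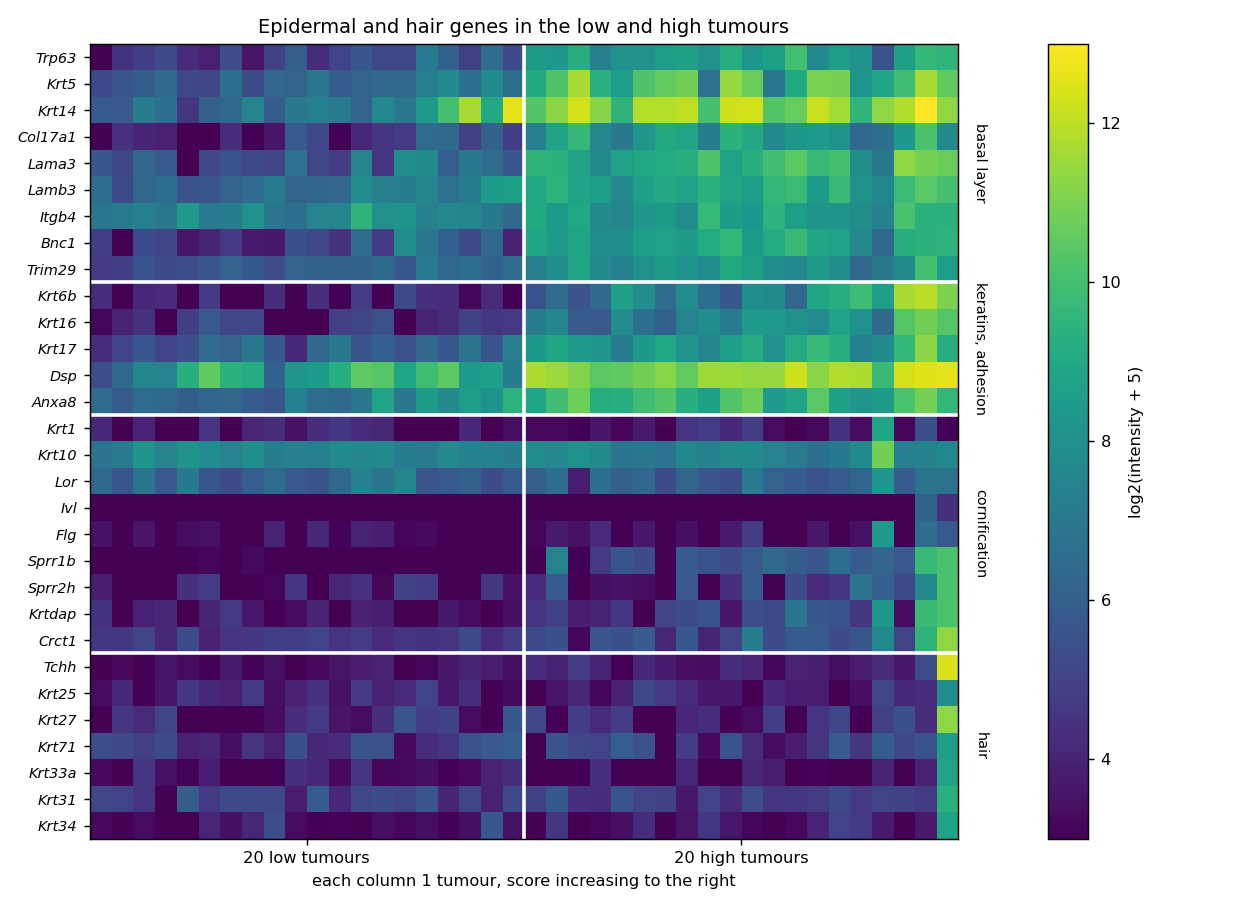
Each column is 1 tumour, the 20 low to the left and the 20 high to the right of the white line, with the score increasing to the right; colour is log2(intensity + 5), with values under 3 and over 13 shown at the ends of the scale. Basal genes and activated keratins are raised across the high tumours. Sprr1b, Krtdap and Crct1 are bright in the last 2 columns, and Krt1, Krt10 and Flg in the fourth column from the right. The hair genes shown are bright in the last column alone.

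Of 40 tested epidermal transcription factors 17 were higher and 1 was lower, with a median of 0.33. Trp63 stood far above the rest. Fosl1, a Fos family member that forms the AP-1 factor with Jun proteins, ran from 3.06 to 6.71 (median 4.48) in the low and from 4.47 to 8.06 (median 6.54) in the high tumours, a difference of 2.03 (SE 0.35, adjusted p = 5.6e-05). Fos, Junb and Jun, the other subunits that were called, were higher by 1.07 (SE 0.22), 0.58 (SE 0.16) and 0.44 (SE 0.14), whereas Fosl2 and Jund differed by 0.16 and 0.34 without passing the test. Fosl1 and Fos kept their call with the collagen covariate, at 1.63 (adjusted p = 0.037) and 1.04 (adjusted p = 0.045), and Jun and Junb did not (adjusted p = 0.14 and 0.20). Id1, an inhibitor of basic helix-loop-helix factors, Klf4, which drives the epidermal barrier, and Prdm1 were higher by 1.27, 1.24 and 1.20, none of them called with the covariate (adjusted p = 0.11, 0.39 and 0.19). Grhl1, a grainyhead factor of the desmosome genes, was the one that was lower, with a difference of -0.87 (SE 0.20, adjusted p = 0.0015), with medians of 10.07 and 9.002, and -0.40 (adjusted p = 0.42) with the covariate. Tfap2c, Ovol1, Gata3 and Klf5 did not pass the test. Grhl2 and Tfap2a passed it only without E2F1 null replicate 6 (0.29 and 0.17, adjusted p = 0.10 and 0.36 with all tumours, 0.011 and 0.033 without that one).

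Proteases of skin and stroma also differed. Of 17 tested epidermal proteases and inhibitors 9 were higher and 2 were lower (1 without E2F1 null replicate 6). Klk7 and Klk6, kallikreins of the epidermis, were higher by 2.57 (SE 0.59) and 2.53 (SE 0.61), and the inhibitors Serpinb2 and Serpinb5 by 2.95 (SE 0.54) and 1.72 (SE 0.31). None of the 17 passed the threshold with the collagen covariate, where for these 4 the adjusted p ran from 0.074 for Serpinb5 to 0.39 for Klk6. Mmp13, a collagenase, ran from 4.19 to 10.12 (median 7.49) in the low and from 7.86 to 13.46 (median 10.32) in the high tumours. Its difference was 3.52 (SE 0.57, adjusted p = 3e-05), and 2.36 (adjusted p = 0.058) with the covariate.

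As several AP-1 subunits were higher, the promoters of the called genes were searched for the AP-1 consensus TGACTCA on both strands (TGAGTCA on the other), in the 250 bases before each start in the RefSeq promoter table of GRCm38.p6. The motif was in 4.46% of all 32851 promoters and in 3.57% of the 9175 promoters of tested genes. It was in 5.01% of 1638 promoters of genes that were higher in the high tumours and in 2.62% of 1336 promoters of genes that were lower. Among genes higher by more than 2-fold the share was 8.63% of 498 promoters, and among genes lower by more than 2-fold it was 4.29% (3 of 70 promoters). Among the 59 genes higher by more than 4-fold 39 had a promoter in the table, and 5 of their 46 promoters held the motif, those of Mmp13, Mmp3, Mmp10, Igfbp2 and Ecm1. Sprr1a, which chose the groups and is in none of the shares of called genes, held it too. These shares are a description, and a match is not evidence of binding. The stretches that hold it are shown 5' to 3' along the gene, with the motif in capitals, for the 5 called genes higher by more than 4-fold and, as a description only, for Sprr1a.
Mmp13 (chr9:7272439-7272513, plus strand): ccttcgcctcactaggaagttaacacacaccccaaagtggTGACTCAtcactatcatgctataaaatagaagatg
Mmp3 (chr9:7445736-7445821, plus strand): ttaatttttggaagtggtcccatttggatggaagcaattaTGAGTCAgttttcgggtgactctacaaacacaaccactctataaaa
Mmp10 (chr9:7502239-7502325, plus strand): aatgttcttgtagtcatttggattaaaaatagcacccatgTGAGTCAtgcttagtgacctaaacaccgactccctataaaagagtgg
Igfbp2 (chr1:72825308-72825386, plus strand): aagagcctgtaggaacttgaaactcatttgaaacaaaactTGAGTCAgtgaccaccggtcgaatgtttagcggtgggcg
Ecm1 (chr3:95739587-95739673, minus strand): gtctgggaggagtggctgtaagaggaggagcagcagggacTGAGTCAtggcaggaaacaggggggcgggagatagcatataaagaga
Sprr1a (chr3:92485981-92486067, minus strand): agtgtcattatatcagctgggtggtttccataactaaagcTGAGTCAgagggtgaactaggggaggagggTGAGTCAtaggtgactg

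The first 3 of these genes are neighbours on chromosome 9, a cluster of matrix metalloproteinases. Mmp3, a stromelysin, was higher by 2.45 (SE 0.47) with medians of 6.18 and 9.06, and Mmp10, a second stromelysin, by 2.27 (SE 0.35) with medians of 5.43 and 7.37. Igfbp2, which binds insulin-like growth factors, was higher by 2.16 (SE 0.46), and Ecm1, an extracellular matrix glycoprotein of skin, by 2.18 (SE 0.34). In the motif, the match nearest to the start was that of Mmp13, at positions -35 to -29, and the farthest was that of Sprr1a, at -146 to -140, counted back from the start. With the collagen covariate, Mmp10 (1.47, adjusted p = 0.038) and Igfbp2 (2.23, adjusted p = 0.042) stayed called, and Mmp3 (0.96, adjusted p = 0.32) and Ecm1 (0.98, adjusted p = 0.058) did not.

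The genes that were lower by the largest amounts were secretory. Lpo, the lactoperoxidase of milk and saliva, ran from 4.06 to 13.14 (median 10.02) in the low and from 3.18 to 10.60 (median 6.95) in the high tumours, a difference of -3.34 (SE 0.78, adjusted p = 0.0015). Car6, a secreted carbonic anhydrase, was above 12 on the log2 scale in 14 of the 20 low tumours and in 3 of the 20 high ones, with medians of 13.73 and 9.83 and a difference of -2.85 (SE 0.70, adjusted p = 0.0023). The groups overlapped at both ends: the low tumour E2F1 null replicate 3, the one with high Krt14, had the lowest Car6 value, 5.62. Bhlha15, known as Mist1, a transcription factor of cells that secrete protein, differed by -1.82 (SE 0.35, adjusted p = 0.00024), with medians of 11.23 and 9.58. Pip, a secreted protein induced by prolactin, and Scgb2b27, a secretoglobin, differed by -2.08 and -2.72 (adjusted p = 0.021 and 0.028; 0.046 and 0.056 without the 2 highest tumours). With the collagen covariate these differences were -3.12 for Lpo, -2.24 for Car6, -0.97 for Bhlha15, -1.996 for Pip and -2.07 for Scgb2b27. None was past the threshold (adjusted p from 0.11 to 0.46). Milk genes as a whole did not follow: of 26 tested members of the milk and secretory list 1, Lpo, was lower and 2, Mfge8 and Saa3, were higher, and with the covariate none was called.

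Luminal keratins stayed bright in the high tumours. Krt8 ran from 12.18 to 13.89 (median 12.75) in the low and from 12.77 to 13.87 (median 13.23) in the high tumours and was higher by 0.50 (SE 0.12, adjusted p = 0.0023). Krt18 differed by 0.14 (SE 0.15, adjusted p = 0.50), and Epcam, an adhesion protein of simple epithelia, by -0.23 (SE 0.10, adjusted p = 0.078). Krt19, a luminal marker like Krt8 and Krt18, was higher by 2.15 (SE 0.52, adjusted p = 0.0023). Krt7, a keratin of simple epithelia, was higher by 1.56 (SE 0.32), and Aldh1a3, a retinaldehyde dehydrogenase, by 2.71 (SE 0.52). Rab25, a small GTPase of epithelial transport, differed by -0.66 (SE 0.14). Of the 23 tested luminal members 4 were higher and 3 were lower, which is near the 17.5% and 14.6% of all genes. None of the 23 was called with the collagen covariate.

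Fibroblast genes were higher across their list, 28 of 30 tested with a median of 1.28. Tnc, the matrix protein tenascin C, was higher by 2.28 (SE 0.36), Postn by 1.59, Bgn by 1.44 and Col6a1 by 1.41. The summed signal of the fibroblast markers Col1a1, Col3a1, Dcn and Lum ran from 2048 to 9286 in the low tumours (median 4299) and from 2846 to 51758 in the high tumours (median 11030), and all 4 were called (Lum with an adjusted p of 0.019, and of 0.053 without E2F1 null replicate 6). The collagen score is built from this list, so that its 0 calls with the covariate follow from the construction. Of 29 tested genes of epithelial to mesenchymal transition 19 were higher and 1 was lower. Tgfbi, a matrix protein induced by TGF-beta, was higher by 2.56 (SE 0.26) and Snai2, a repressor of epithelial genes found in basal cells, by 1.75 (SE 0.26). With the covariate they were at 1.55 (adjusted p = 1.4e-05) and 0.80 (adjusted p = 0.047), Cdh2, the N-cadherin, was at 0.68 (adjusted p = 0.19) against 1.78 without it, and 2 of the 29 were called.

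**Figure D4:**
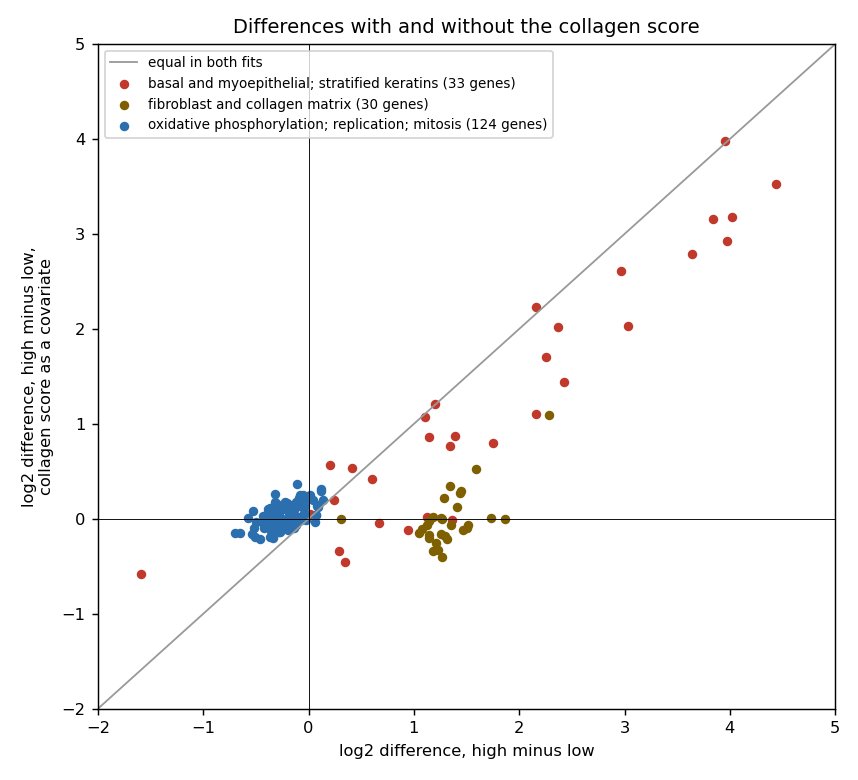
Each point is a gene, with its log2 difference between high and low tumours on the horizontal axis and the same difference with the collagen score as a covariate on the vertical axis; the line marks equal values and colours mark gene lists. Krt16, Krt6b, Col17a1 and Lama3 stay between 3.16 and 3.98 on the vertical axis, while fibroblast genes, which make up the covariate, and the genes of respiration, replication and mitosis lie near 0. Krt16 and Krt6b passed the filter on low signal only through the high tumours, so their position is a description.

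Inflammatory genes were higher in part. Of 21 tested neutrophil and chemokine genes 9 were higher, among them S100a8, a calcium-binding protein of neutrophils and of activated keratinocytes, with medians of 7.004 and 10.51 (difference 2.74, SE 0.49), Mmp9 (2.64, SE 0.42) and Cxcl5 (2.40, SE 0.41). Of 15 tested epidermal S100 and antimicrobial genes, a list that shares S100a8 with the former, 11 were higher, including S100a6 (1.74) and S100a10 (1.38). With the collagen covariate S100a6 and S100a10 were the 2 of these 15 that stayed called, and none of the 21 neutrophil and chemokine genes was (adjusted p = 0.064 for S100a8, 0.083 for Mmp9 and 0.14 for Cxcl5). Of 24 tested macrophage genes 6 were higher, but 3 without E2F1 null replicate 6, and also 3 without the 2 highest tumours. Csf1r was at 0.67 (adjusted p = 0.042; 0.11 without E2F1 null replicate 6) and at -0.42 (adjusted p = 0.13) with the covariate. T cell markers were near the lower end of the scale, with medians of 4.24 for Cd3e and 4.47 for Cd3g in the high tumours and 4.41 and 4.59 in the low. Adipocyte genes gave no call among 10 tested. Myoglobin, Mb, was the only call among 22 tested muscle genes. Of 29 tested interferon genes 2, Gbp2 and Ifi47, were called, with a list median of 0.81 and 28 of 29 values above 0; Ifi47 was not called without E2F1 null replicate 6 (adjusted p = 0.086) or without the 2 highest tumours (0.075). With the covariate no macrophage, muscle or interferon gene was called.

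Genes of respiration were lower by small amounts. Of 40 tested genes of oxidative phosphorylation 25 were lower and none was higher, with a median of -0.26. Uqcrfs1, the iron-sulphur subunit of complex III, had medians of 12.19 and 11.69 (difference -0.51, SE 0.11, adjusted p = 0.00093), and Ndufa9, a subunit of complex I, differed by -0.47 (SE 0.11). Of 46 tested Myc targets and ribosome biogenesis genes 19 were lower and 2 were higher, of 42 mitosis genes 12 were lower and of 42 replication genes 8 were lower, against 14.6% of all genes; the replication count is near that share. These counts rested in part on single tumours: without E2F1 null replicate 6 they were 11, 4 and 4, and 18 for oxidative phosphorylation. Without the 2 highest tumours they were 11, 5, 6 and 20. Of all 8761 tested genes 935 were lower in the former fit and 1015 in the latter. The mitosis and replication counts of these fits were near those shares. Hmmr and Birc5, both of mitosis, differed by -0.58 (SE 0.16) and -0.52 (SE 0.15), and Rfc4, a clamp loader of replication, by -0.65 (SE 0.14). Myc itself, measured by a probe set that may see the transgene, the mouse's own gene or both, ran from 13.23 to 13.88 (median 13.63) in the low and from 12.48 to 13.92 (median 13.35) in the high tumours, a difference of -0.36 (SE 0.09, adjusted p = 0.002). Its antagonist Mnt was higher by 0.70 (SE 0.17). With the collagen covariate none of the genes of these 4 lists was called, Hmmr was at 0.01 and Myc at -0.18 (adjusted p = 0.42). Among 10 tested members of the E2F and pocket protein family Rb1 was higher by 0.84 (adjusted p = 0.01) and Tfdp1 was at -0.29 (adjusted p = 0.034; 0.09 without E2F1 null replicate 6 and 0.074 without the 2 highest tumours), and E2f3 differed by -0.24 (adjusted p = 0.12); with the covariate no member was called.

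Of 35 tested genes of the p53 pathway, cell cycle exit and apoptosis 15 were higher and none was lower, with a median of 0.37. Fas, a death receptor, was higher by 1.34 (SE 0.29), Phlda3, an inhibitor of Akt signalling, by 1.08 (SE 0.21), and Plk3 by 0.89 (SE 0.18). None of the 35 was called with the collagen covariate (median 0.17; adjusted p = 0.17, 0.12 and 0.13 for these 3). Of 33 hypoxia and glycolysis genes 9 were higher and 1 was lower, the latter not called without E2F1 null replicate 6 or without the 2 highest tumours. Adm, which encodes adrenomedullin, had medians of 5.81 and 8.003 (difference 1.97, SE 0.33, adjusted p = 4.4e-05), and with the collagen covariate its difference was 2.15 (adjusted p = 0.003); 6 of the 33 genes were called in that fit, P4ha2 among them. Glycolytic enzymes such as Pgk1 and Aldoa, chosen after their values were seen, differed by -0.04 and 0.07.

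**Figure D5:**
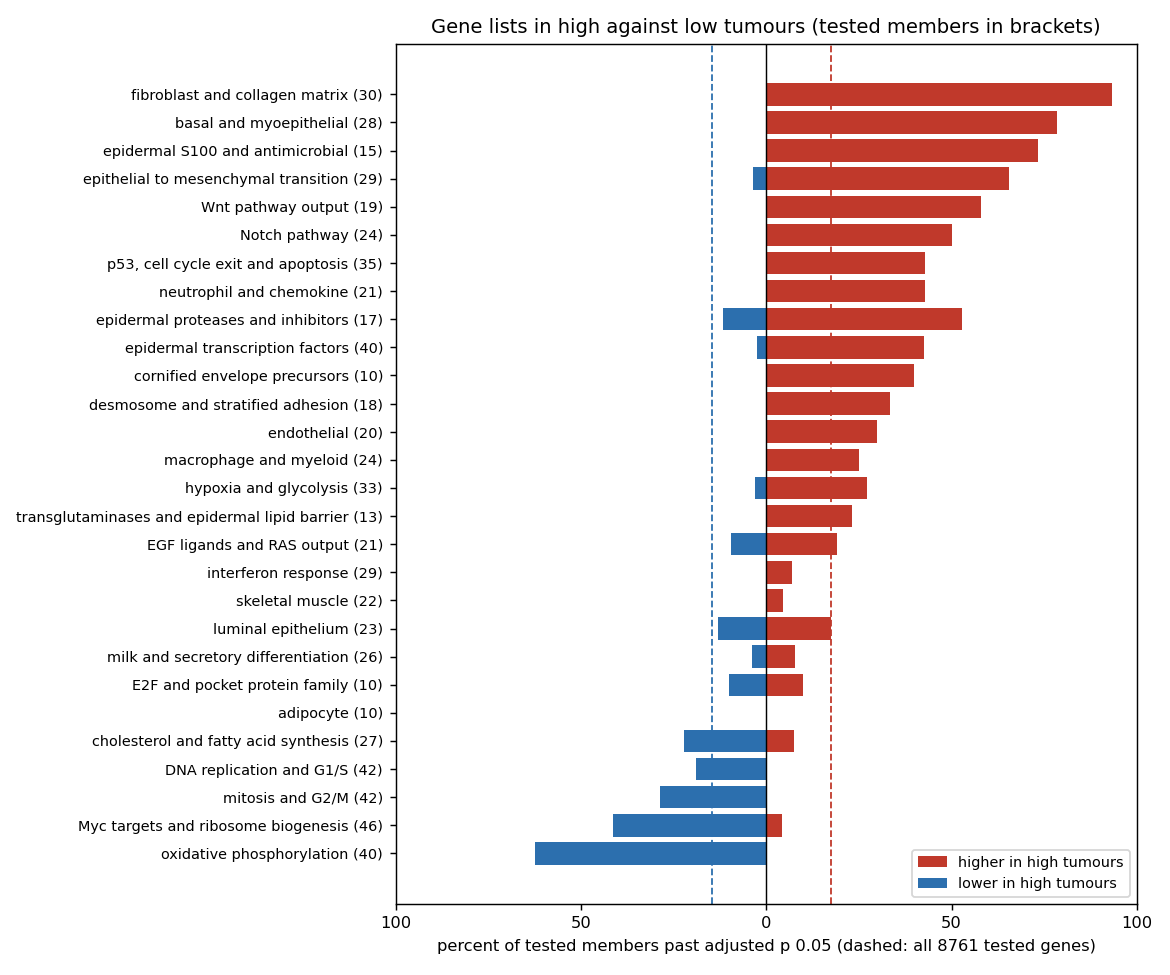
For each gene list with at least 10 tested members, given in brackets, the bar to the right is the percentage of members higher in the high tumours and the bar to the left the percentage lower, both at adjusted p under 0.05; dashed lines mark the shares over all tested genes, 17.5% and 14.6%. Fibroblast and basal genes lie at the top and oxidative phosphorylation at the bottom.

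Signalling genes of the epidermis followed unevenly. Of 24 tested genes of the Notch pathway, which drives cells out of the basal layer, 12 were higher and none was lower, with a median of 0.25. The ligand Dll1 was higher by 0.82 (SE 0.18), the DNA-binding factor Rbpj by 0.52 (SE 0.13) and the inhibitor Numb by 0.41 (SE 0.10). Of 19 tested Wnt pathway genes 11 were higher and none was lower, with a median of 0.69: the ligands Wnt5a (1.67, SE 0.33), Wnt10a (1.51, SE 0.27) and Wnt7b (1.27, SE 0.23) and the inhibitor Apcdd1 (1.77, SE 0.36). Of 21 tested EGF ligand and RAS output genes 4 were higher and 2 were lower, which is near the 17.5% and 14.6% of all genes. Hbegf, the ligand of wounded epidermis, was higher by 1.27 (SE 0.35), whereas Egf and Btc were at -1.42 (SE 0.36) and -0.50 (SE 0.14). No gene of these 3 lists was called with the collagen covariate.

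The 40 middle tumours, which took no part in that comparison, were used to ask whether genes follow the score within them. Their scores spanned -0.59 to 0.51. They are not wholly separate samples, since 7 label numbers of high tumours and 6 of low tumours recur among them. Of 8761 genes 54 (0.616%) rose and 22 (0.251%) fell with the score, by limma with the same covariate and block; 49 and 19 of these had been called in the same direction between high and low tumours, and none in the opposite direction. Of the 1535 genes that were higher in the high tumours 94.9% had a positive slope in the middle tumours, against 56.3% of all tested genes, and of the 1280 lower genes 85.9% had a negative slope, against 43.7%. Krt17 had the smallest p, with a slope of 1.36 per unit of score (SE 0.19, adjusted p = 0.00023), followed by Trim29 (1.47, SE 0.26) and Cd200, a surface glycoprotein (1.53, SE 0.28). Krt6b (2.10, SE 0.44), Gas6 (1.88, SE 0.38), Ajuba (1.31, SE 0.27) and Lamb2 (1.00, SE 0.21) were also among the 10 genes of smallest p, as were Nap1l1, Mrpl40 and Mrpl42 with slopes of -0.49, -0.32 and -0.42. Col17a1 (2.90, SE 0.63, adjusted p = 0.024), Bnc1 (2.20, SE 0.49, adjusted p = 0.024) and Krt16 (1.67, SE 0.40, adjusted p = 0.036) passed the threshold, and Trp63 (1.88, SE 0.53, adjusted p = 0.062), Krt5 (2.42, SE 0.69, adjusted p = 0.063) and Lama3 (1.51, SE 0.54, adjusted p = 0.12) did not. Krt6b and Krt16 were above the filter on low signal in only 3 and 8 of the 40 middle tumours. Krt6b is also nearly identical in sequence to the score gene Krt6a. Lpo and Car6 had slopes of -1.25 (SE 1.00) and 0.69 (SE 1.07). No fibroblast gene was called, although the median slope of that list was 0.81 per unit of score, against 0.04 over all tested genes. The middle tumours span a narrower range of scores, so a missing call there does not show that a relation is absent. Across the 40 middle tumours the collagen score and the squamous score had a Pearson correlation of 0.28, against 0.57 over all 80, as a description over unlike ranges of score.

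The score itself was compared between genotypes on means per label number. It was 0.12 ± 0.86 (SD, n = 16) in E2F wild type, -0.14 ± 0.66 (SD, n = 16) in E2F1 null, -0.29 ± 0.62 (SD, n = 11) in E2F2 null and 0.36 ± 0.95 (SD, n = 10) in E2F3 heterozygous tumours. The differences from wild type were -0.26, -0.40 and 0.24. The 5 score genes are described here without a test, so these values do not decide whether the score differs between genotypes. The 8 high tumours of the E2F3 heterozygous group included all 3 that share label number 4140. Whether the relation of a gene to the score differs between genotypes was tested over all 80 tumours by limma's moderated F test: 0 of 8761 genes passed, 779 had an unadjusted p under 0.05, and the smallest adjusted p was 0.212, for Bysl. Without E2F1 null replicate 6, Bysl and Polr1e, which act in ribosome production, passed at 0.036.

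Tumours that share a label number were often unlike each other. Of 19 numbers with several tumours, which hold 46 tumours, 12 were split between the groups and 3 held both a high and a low tumour. The SD of the score within a number was 0.76, against 0.81 over all 80 tumours. Under number 3979, E2F1 null replicate 18 was high (score 0.76) and replicate 19 low (-0.84), with Krt5 at 10.72 and 6.20, Krt14 at 12.32 and 6.13, Trp63 at 8.25 and 5.75 and Car6 at 9.15 and 12.43. Under number 4010, E2F2 null replicate 16 was high (0.54) and replicate 18 low (-0.75), with Krt5 at 10.26 and 6.29 and Car6 at 7.65 and 14.02. Under number 3560, E2F2 null replicate 7 was high (1.77) and replicate 8 low (-0.71), with Krt5 at 9.88 and 7.29 and Car6 at 9.32 and 13.11. In all 3 pairs Trp63, Krt5, Krt14, Krt17, Krt6b and Col17a1 were brighter in the high tumour and Car6 was dimmer. Middle tumours of these numbers did not all lie between in Car6. E2F2 null replicate 6 (number 3560, score -0.59) had Car6 at 7.40, and E2F2 null replicate 15 (number 4010, score -0.13) had it at 7.05. Both values were below that of the high tumour of the same number. Krt14 in replicate 6 was at 11.23, between the 8.42 of the low and the 11.83 of the high tumour.

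Over all 80 tumours the genes most like the score, among those that passed the filter, were Krt6b, Krt17, Krt16, Trim29, Tpm2, Tgfbi, Anxa2, Trp63, Bnc1 and Lama3, with Pearson correlations from 0.87 for Krt6b to 0.76 for Lama3. The 5 most unlike were Hsd17b10, Hibch, Mrm3, Mtg1 and Nudt19, from -0.68 to -0.67. These correlations describe the same tumours that the groups were drawn from.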

How the data were processed

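RNA from 80 flash-frozen MMTV-Myc tumours was hybridised to 1-colour Affymetrix arrays, 20 for each E2F genotype. The authors deposited linear MAS5 intensities made in Affymetrix Expression Console, per the submitters' processing notes; no source used here gives software versions. Values were analysed as log2(intensity + 5). Of 22690 probe sets 20380 had 1 gene symbol, 691 several and 1555 none; the brightest probe set stood for each of 12393 genes, and genes above 74.6 on at least 10 of 80 arrays were kept. High and low tumours were compared with limma 3.58.1 in R 4.3.3, with genotype as a covariate, the label number as a random block (duplicateCorrelation with statmod 1.5.0, consensus 0.131) and Benjamini-Hochberg adjustment over 8761 genes. Slopes on the score in the 40 middle tumours were fitted likewise. Single values were compared by permutation tests with 100000 resamples. On simulated arrays the fit recovered 66% of log2 changes of 0.5 and 79% of changes of 1, with 0.07% of unchanged genes called. Whether these shares hold for groups selected on measured values, as the high and low tumours were, was not tested. Named genes were the 12 with the largest increase and decrease, the 4 of smallest p in each list, the tested members of the squamous lists, and the score, Myc and E2F genes; others are named as chosen later. The groups, lists and named members were chosen with earlier results of these data known. Alternatives covered scaling, filter, pseudocount, probe sets, score genes, group size, covariates, the block and single tumours. The number of arrays limits the precision.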

Additional observations from a re-analysis of the deposited data

How the results depend on the processing

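The counts of 1535 higher and 1280 lower genes stayed within 1.5 times their size under the other pseudocount, filters, quantile normalization, group sizes and score genes tried, and were 1305 and 935 without E2F1 null replicate 6 and 1296 and 1015 without the 2 highest tumours. After quantile normalization 1357 genes were higher and 1548 lower, so that lower genes then outnumbered higher ones. With every probe set on its own 1926 were lower. With no replicate block, that is without the label number as a block, 1569 genes were higher and 1312 lower, and all 137 called genes among 167 named stayed called. The collagen score as a covariate, chosen after the data were seen, left 150 calls (130 higher and 20 lower) and 30 of the 137, and it turned the sign of Lamb2 (-0.0188), Cd86 (-0.075), Mrc1 (-0.24), Csf1r (-0.42), Eng (-0.0257), Cd34 (-0.0575) and Hmmr (0.0079); since that score was correlated with the squamous score, the covariate also removes part of the contrast. In the middle tumours 54 genes rose and 22 fell; the counts were 94 and 36 (130 in all) with every probe set, 46 in all with 9 falling without the filter, 48 in all with 28 rising after quantile normalization, 149 and 67 (216 in all) without genotype as a covariate, and 49 and 18 with no replicate block. E2F1 null replicate 6 is not a middle tumour. The dependence of the relation on genotype gave 2 calls without that tumour and 0 with it. The causes of these changes were not tested. Dim genes near the filter value have little precision.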

Other observations

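Of the genes called among the middle tumours, 5 of the 54 that rose and 3 of the 22 that fell with the score were not called between the high and low tumours. Egfr, the receptor of EGF, had a slope of 0.81 in the middle tumours (adjusted p = 0.047, limma) and a difference of -0.02 (SE 0.22, adjusted p = 0.955) between high and low tumours. Tmem35a, a membrane protein, had a slope of 2.67 (adjusted p = 0.04) and a difference of 0.13 (SE 0.48). Among the 5 were also Foxo1, Tprgl and Zbtb14. Egfr and Tmem35a were chosen after their values were seen, and the difference between the comparisons was not tested.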
